A study of Mus musculus with 11 samples.

Results

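The cytosolic ribosome has a small and a large subunit, each built from ribosomal RNA and a set of ribosomal proteins. The genes of these proteins were followed here in alveolar macrophages, the phagocytes that live on the inner surface of the mouse lung. Members were taken by symbol: Rpl or Rps followed by a digit, or Rplp0, Rplp1, Rplp2 and Rpsa, without S6 kinases, pseudogenes and symbols of the "-like" kind such as Rpl22l1. Of 19505 distinct gene symbols on the array 59 matched. Of these, 55 were kept as members, 33 of the large and 22 of the small subunit, and every value given for the members covers these 55. The other 4 matches are given apart: Rps19bp1, a protein that binds the product of Rps19, and the retrotransposed copies Rps23rg1, Rpl37rt and Rps27rt. Rplp2, Rps3, Rps27a, Rps27, Rpl10 and Rpl13a were not analysed here.

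RNA was hybridised to 11 Affymetrix arrays in a mouse model of macrophage activation syndrome (MAS), a hyperinflammatory state. All mice were female C57BL/6J, bought at 6 weeks of age, and all received 5 injections within 10 days. Resolution mice (4 arrays) had CpG 1826, an oligonucleotide ligand of Tlr9, and their lavage came on day 30. Acute mice (3 arrays) had the same CpG with lavage on day 10. Control mice (4 arrays) had PBS with lavage on day 10. Resolution thus differs from control in CpG and in the day of lavage, and these cannot be told apart. The lavaged cells were purified by adherence, and the labels call the arrays of a group biological replicates. In such bulk samples, fewer cells of a type and less RNA per cell cannot be told apart.

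Cells make ribosomal proteins in near-equal amounts, and their mRNAs are among the most abundant of growing cells. Most of these mRNAs begin with a cytosine followed by a run of pyrimidines, the 5′ terminal oligopyrimidine (TOP) tract. Through it the kinase mTOR and the protein Larp1 govern their translation, so mRNA levels alone do not give protein output.

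Of the members, 43 had at least 1 promoter window of 300 bases in RefSeq (build GRCm38.p6, mouse), 250 before and 50 after an annotated start, 52 windows in all. At the annotated start itself, 11 of the 52 windows (21.2%) had a C followed by at least 4 pyrimidines, against 2.51% of all 32851 windows. Stretches of 30 bases before and 20 from the start are shown for 6 of these members, to make the tract visible in genes discussed with the values. Capitals mark the C at the start and the pyrimidine run behind it.
Rps6 (chr4:86857348-86857397, minus strand): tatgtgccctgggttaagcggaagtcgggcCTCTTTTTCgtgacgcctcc
Rps10 (chr17:27635225-27635274, minus strand): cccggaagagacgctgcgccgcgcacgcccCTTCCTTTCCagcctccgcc
Rps21 (chr2:180257349-180257398, plus strand): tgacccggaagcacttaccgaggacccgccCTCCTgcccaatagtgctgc
Rps15a (chr7:118116128-118116177, minus strand): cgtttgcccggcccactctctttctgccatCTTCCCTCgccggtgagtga
Rpl14 (chr9:120571487-120571536, plus strand): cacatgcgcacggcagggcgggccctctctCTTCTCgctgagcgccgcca
Rpl15 (chr14:18270967-18271016, minus strand): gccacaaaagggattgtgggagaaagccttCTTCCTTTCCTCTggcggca
In these stretches the run at the start spans 5 bases in Rps21 and 13 in Rpl15, the C included. Over whole windows and both strands, CCGGAAG, the core of sites for ETS factors such as Gabpa, stood in 38.5% of member windows and 8.86% of all windows. CCATNTT, the core bound by Yy1, stood in 30.8% and 16.1%, and CACGTG, the E-box bound by Myc and Max, in 9.62% and 7.15%. TATAAA, the TATA box, stood in 9.62% of member windows and 13.6% of all windows. Each motif was counted on its own, whether or not it overlapped another, and a match describes letters only.

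The members were bright on every array. All 55 lay above the antigenomic background on all 11 arrays and passed the filter on dim genes, as did the 4 symbols given apart. Levels are log2(intensity + 1). Member means over 11 arrays ran from 9.42 to 17.46 with a median of 15.99, 38 of them over 15, while the median of all 12143 genes tested was 8.19. Probes bind their targets unequally, so the order of genes by brightness describes array signal and not the amount of RNA. The brightest were Rpl41, which encodes a very short basic peptide, Rpl7 and Rps6, whose product is the substrate of the S6 kinases. The dimmest were Rpl39, whose protein lines the exit tunnel, Rplp0, the base of the P stalk that engages elongation factors, and Rpl36. Rpl41 read 17.39, 17.68, 17.42 and 17.51 on the resolution arrays, 17.40, 17.50 and 17.55 on the acute arrays, and 17.36, 17.41, 17.36 and 17.47 on the control arrays. These 3 groups overlapped, as the plot of levels by gene shows for most members.

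**Figure D1:**
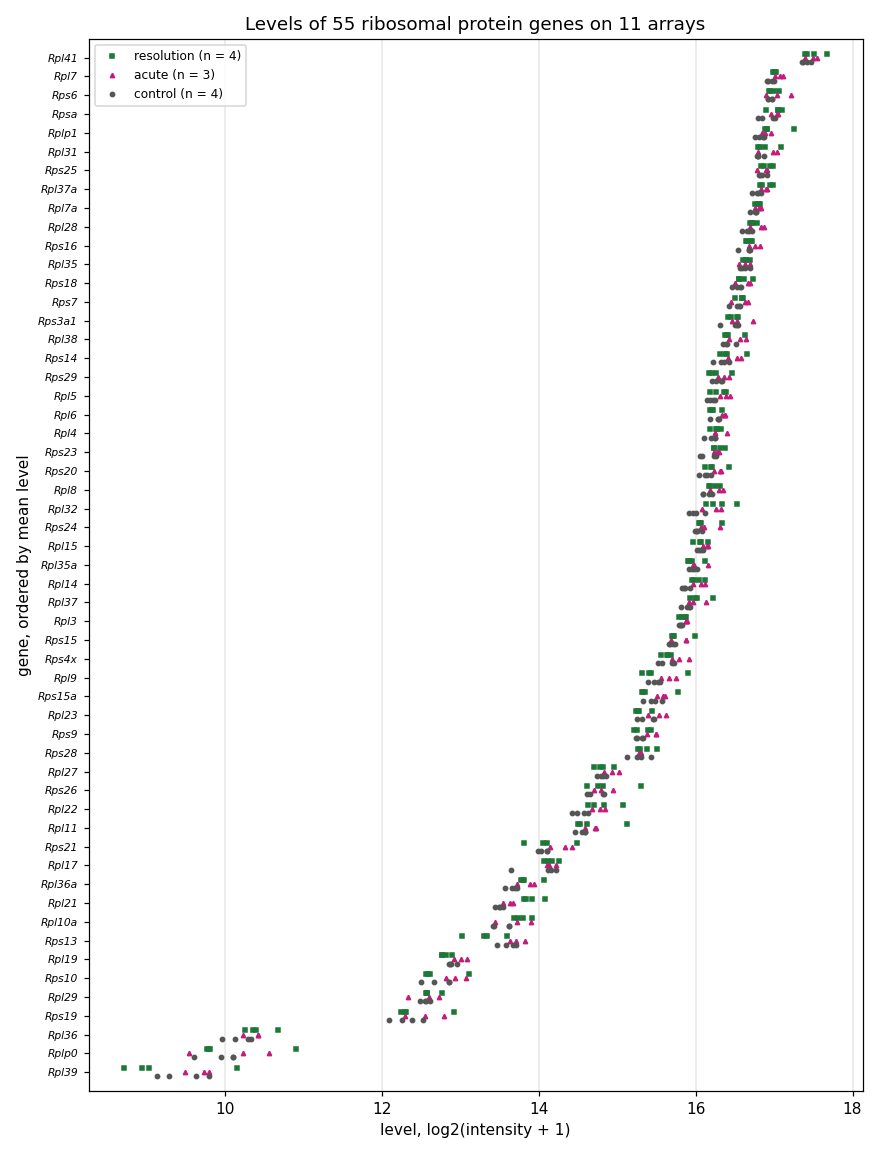
Level of each of the 55 ribosomal protein genes, as log2(intensity + 1), on every array; genes run from the brightest at the top to the dimmest. Rpl39 and Rplp0, at the bottom, have the widest spread, and the points of most bright genes nearly coincide.

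The members varied little. Their SD over all 11 arrays had a median of 0.106, from 0.0378 in Rpl3, a protein near the peptidyl transferase centre, to 0.44 in Rpl39. The median SD of all genes tested was 0.267, and that of 373 other genes with a mean level over 15 was 0.133. Across the 55 members, which are not independent, SD fell with brightness (Pearson r = -0.817, Spearman rho = -0.713). The part that a narrower range of bright probes has in this was not tested. Ribosomal protein genes also have many processed pseudogenes, and whether the probes also bind RNA of such near-identical copies was not tested. Values of single members are uncertain to that extent.

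**Figure D2:**
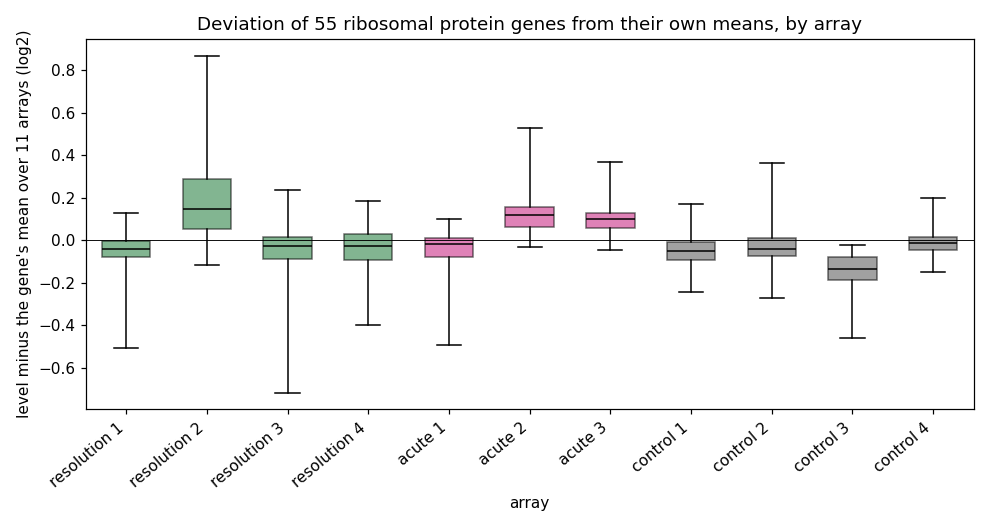
Deviation of the 55 ribosomal protein genes from their own means, in log2 units, on each array; boxes span the quartiles, lines mark medians and whiskers reach the extremes. Resolution replicate 2 and acute replicates 2 and 3 lie above 0 for most genes, and control replicate 3 lies below 0 for all of them.

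The arrays differed within groups. Resolution replicate 2 held the highest of the 11 values for 30 members, acute replicate 2 for 12 and acute replicate 3 for 9. Control replicate 3 held the lowest for 25. The members' median level was 16.04, 16.15, 15.98 and 16.02 on the resolution arrays, 15.98, 16.13 and 16.06 on the acute arrays, and 16.004, 15.97, 15.92 and 15.95 on the control arrays. Within groups these medians had a pooled SD of 0.0626. The members made up 6.41%, 7.01%, 6.48% and 6.50% of the summed intensity on the resolution arrays, 6.37%, 6.81% and 6.72% on the acute arrays, and 6.12%, 6.04%, 5.93% and 6.35% on the control arrays. By this share both CpG groups lay above every control array, with acute replicate 1 and control replicate 4 nearly equal. A shared pattern over arrays was visible in most members: the correlation of a member with the mean of the others had a median r of 0.788 over 11 arrays. It was 0.969 in Rps14 and 0.938 in Rpl38, but 0.094 in Rps25 and 0.262 in Rpl29. The genes outside the set most like the member mean were Atp5j2 (r = 0.945), Eef1akmt1 (0.940), Uqcr10 (0.936), Txnl4b (0.935), Ptma (0.934), Dnajc19 (0.931), Ndufv2 (0.929), Bckdha (0.927), Mrps21 (0.925) and the pseudogene Rpl31-ps12 (0.922), over the same 11 arrays. Among all genes tested 4.29% passed an r of 0.7, which 37 members passed, and all these points share the arrays.

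Facts of the arrays that bear on the values are brief. Median intensities lay between 51.4 and 57.0, and between 8731 and 8952 genes were above background. The alveolar macrophage markers (13 of 15 on the array, including Siglecf, Marco and Pparg) were above background on all arrays, with a mean level of 15.04 to 15.15 in resolution, 14.90 to 14.98 in acute and 14.98 to 15.02 in control. Within that mean, single markers lay apart in opposite directions. Fabp4 averaged 15.49 in resolution and 16.68 in control, and Fabp5 averaged 14.95 in resolution and 15.75 in control. Abcg1 averaged 14.20 in resolution and 12.78 in control, and Pparg averaged 13.78 in resolution and 13.03 in control. Epithelial markers (14 of 15) averaged 6.96 to 7.35 in resolution, 8.83 to 9.48 in acute and 7.59 to 8.31 in control. Sftpb, Krt18 and Muc5b were below background on all arrays. Against that mean, Cdh1 and Epcam were highest in resolution and lowest in acute. Cdh1 averaged 13.42 in resolution, 12.97 in acute and 13.045 in control, and Epcam averaged 8.01, 7.50 and 7.73. Red cell markers (2 of 8, Alas2 and Slc4a1) averaged 6.08 to 7.27 in resolution, 7.003 to 12.35 in acute and 6.54 to 7.16 in control. T cell markers (5 of 7, with Cd3e, Cd3g and Cd8a below background throughout) averaged 4.94 to 5.07 in resolution, 5.45 to 6.11 in acute and 5.11 to 5.44 in control. NK cell markers (7 of 7, with 6 below background throughout) averaged 4.60 to 4.67 in resolution, 4.97 to 5.19 in acute and 4.58 to 4.78 in control. B cell markers (4 of 5) were below background on all arrays. Neutrophil markers (6 of 7) averaged 6.52 to 6.93 in resolution, 6.77 to 6.83 in acute and 6.54 to 8.05 in control. Within that mean, Csf3r averaged 10.40 in resolution and 9.72 in control, while S100a8 averaged 8.56 and 9.87. Elane was below background throughout. Monocyte markers (4 of 5) averaged 5.22 to 5.56 in resolution, 5.40 to 5.88 in acute and 5.14 to 5.37 in control. Of these 4, Ly6c2 and Cx3cr1 were below background throughout and 0 were above it on all arrays. The part of epithelial, red cell and lymphocyte RNA in the member differences was not tested.

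In acute MAS, all 55 members had a small positive difference from control and no single member passed the test. Differences ran from 0.0015 in Rpl29 to 0.24 in Rps21 and Rpl22, with a median of 0.12. Across all genes tested the median was -0.0006 and 49.9% of differences were positive. Among the 373 other bright genes the median was -0.01 and 44.2% were positive. The members share the arrays and most moved together over them, so the 55 signs are not separate results. The groups also overlapped by array: the members' median level was 15.98 on acute replicate 1 and 16.004 on control replicate 1. Scaling all arrays to a common median left 51 members positive with a median of 0.079, quantile normalization left 54 and scaling to the median of other bright genes, chosen after seeing the data, left 53.

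Rps21, a small subunit protein, read 14.15, 14.33 and 14.42 on the acute arrays and 14.10, 14.11, 13.98 and 14.02 on the control arrays. Its acute arrays all lay above the controls, by a difference of 0.24 ± 0.15 (SE; limma adjusted p = 0.665). Rpl22, which is needed for the development of a class of T cells in mice, read 14.67, 14.78 and 14.84 in acute and 14.63, 14.42, 14.48 and 14.57 in control. The groups were again separate, with a difference of 0.24 ± 0.13 (SE; limma adjusted p = 0.622). Rps19, whose human gene is often mutated in Diamond-Blackfan anaemia, read 12.29, 12.78 and 12.55 in acute and 12.25, 12.38, 12.09 and 12.53 in control, which overlap. Rps10, another gene of that disease, read 12.82, 12.93 and 13.07 in acute and 12.66, 12.85, 12.49 and 12.85 in control. Acute replicate 1 fell within the control range in both, and their differences were 0.23 ± 0.19 and 0.23 ± 0.16 (SE).

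Limma called 0 members in acute against control, where it called 29 of 12143 genes (0.239%, with 0.189% higher and 0.0494% lower). At an unadjusted p under 0.05 it again found 0 members, against 9.05% of all genes. SE of the members ran from 0.0972 to 0.293. The 95% interval lay within a 1.5-fold change for 52 members and within a 2-fold change for all 55. The acute arrays of 12 members lay above every control array and those of 0 below. Among all genes this held for 4.71% and 5.39%, and for 10.1% in either direction. Among the 373 other bright genes the acute arrays lay above in 33 and below in 46. The 12 members were Rpl3, Rpl5, Rpl6, Rpl7, Rpl9, Rpl14, Rpl15, Rpl22, Rpl36a, Rps9, Rps20 and Rps21. Rpl5 and Rpl11 bind Mdm2 together with 5S RNA, and read 16.30, 16.44 and 16.38, and 14.59, 14.73 and 14.71, on the acute arrays. On the control arrays Rpl5 read 16.21, 16.19, 16.15 and 16.25 and Rpl11 read 14.55, 14.59, 14.46 and 14.59. The differences were 0.18 ± 0.11 and 0.13 ± 0.15 (SE). Members of the large subunit had a median difference of 0.13 and those of the small subunit 0.11. The 17 members with a level under 15 had a median of 0.17 and the 38 brighter ones 0.11.

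**Figure D3:**
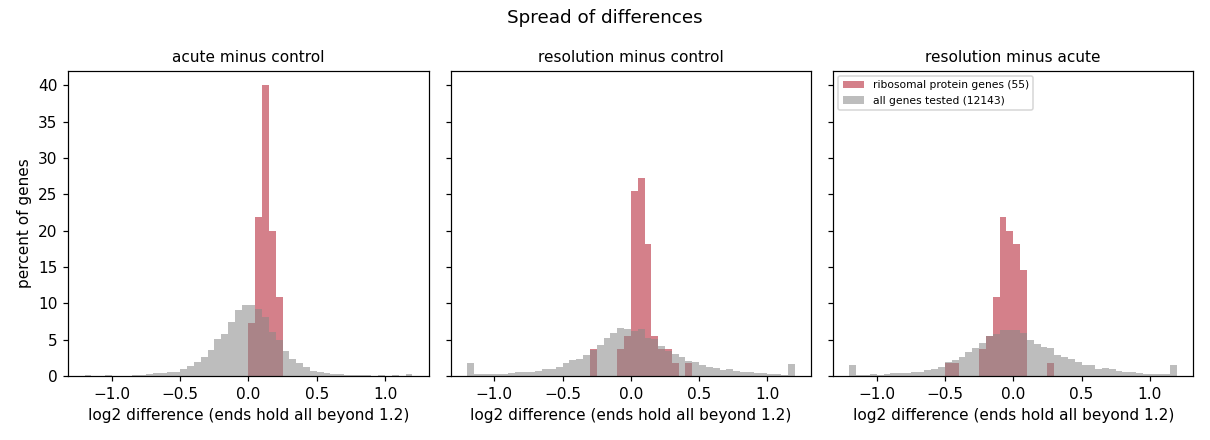
Histograms of log2 differences for the 55 ribosomal protein genes and for all 12143 genes tested, in percent of each set, in acute minus control, resolution minus control and resolution minus acute. The members sit in a narrow peak, to the right of 0 in acute minus control with a median of 0.117.

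In resolution, 48 members had a positive and 7 a negative difference from control, and Rpl21 alone passed the test, against 18.6% of all genes, 9.6% higher and 9.0% lower. Of all genes tested 50.5% had a positive difference, and of the 373 other bright genes 47.2% did. Among those bright genes the median was -0.014 and limma called 18.5%. The comparison uses the same control arrays as the acute one. The members' median difference was 0.07, against 0.003 for all genes tested, and 0.035 with 38 members positive without resolution replicate 2. Without both resolution replicate 2 and control replicate 3, a choice made after seeing the data, 30 members were positive with a median of 0.013. Quantile normalization and scaling to other bright genes each gave 51 positive members, and scaling to a common median gave 48.

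Rpl21, a protein of the large subunit whose human gene is mutated in a hereditary hair loss, read 13.81, 14.07, 13.91 and 13.84 on the resolution arrays. It read 13.54, 13.67 and 13.63 on the acute arrays and 13.44, 13.49, 13.50 and 13.54 on the control arrays. All 4 resolution arrays lay above all others. Group means were 13.91 ± 0.12 in resolution, 13.62 ± 0.07 in acute and 13.49 ± 0.04 in control (SD). Rpl21 was 1.33-fold higher in resolution than in control, a log2 difference of 0.42 ± 0.10 (SE; 95% interval 0.20 to 0.63; limma adjusted p = 0.0123). Without control replicates 3 and 4 together the difference was 0.45 and the adjusted p 0.0519.

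The next largest positive differences did not pass. Rpl32, a large subunit protein, read 16.13, 16.53, 16.34 and 16.22 in resolution, and 16.004, 15.97, 15.92 and 16.12 in control. The arrays just separated (0.30 ± 0.12 SE; limma adjusted p = 0.0924), and limma called Rpl32 after quantile normalization (adjusted p = 0.0486), with an intensity trend (0.015) and after scaling to other bright genes (0.0452). Rpl22 read 14.62, 15.07, 14.71 and 14.83 in resolution, against control values of at most 14.63, and overlapped them (0.28 ± 0.12 SE; limma adjusted p = 0.124, and 0.0409 with the trend). Rpl10a, reported on a subset of ribosomes in mouse stem cells, read 13.74, 13.92, 13.80 and 13.68 in resolution, and 13.42, 13.62, 13.42 and 13.61 in control (0.27 ± 0.12 SE; limma adjusted p = 0.161). Resolution arrays of 7 members lay above every control array, namely Rpl10a, Rpl14, Rpl21, Rpl32, Rpl36a, Rpl37 and Rplp1, and those of 0 below, against 11.4% and 11.2% of all genes and 22.7% in either direction. Among the 373 other bright genes the resolution arrays lay above in 56 and below in 91. At an unadjusted p under 0.05 limma found 4 members (Rpl21, Rpl22, Rpl32 and Rps13), against 31.3% of all genes.

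The 7 members with negative differences were led by Rps13, a small subunit protein, and Rpl39. Rps13 read 13.02, 13.59, 13.34 and 13.31 in resolution, 13.64, 13.71 and 13.83 in acute, and 13.70, 13.67, 13.46 and 13.58 in control. Resolution replicates 1, 3 and 4 were below every other array, and the difference from control was -0.29 ± 0.13 (SE; limma adjusted p = 0.146). Rpl39 read 8.94, 10.15, 8.71 and 9.02 in resolution, 9.49, 9.72 and 9.79 in acute, and 9.28, 9.79, 9.13 and 9.62 in control. Resolution replicate 2 was the highest of all 11 arrays and the other 3 resolution arrays the lowest. The difference of Rpl39 from control was -0.25 ± 0.27 (SE; limma adjusted p = 0.567), and -0.57 (adjusted p = 0.0421) without resolution replicate 2. Rpl19 differed by -0.08 ± 0.10 and Rpl23, which can bind Mdm2, by -0.07 ± 0.11 (SE). The others, Rpl6, Rps15a and Rps29, lay between -0.022 and -0.007.

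The P stalk genes showed the same array dependence. Rplp0 read 9.77, 10.90, 9.80 and 9.80 in resolution, 9.54, 10.56 and 10.22 in acute, and 10.10, 10.10, 9.60 and 9.95 in control. Its difference between resolution and control was 0.13 ± 0.27 (SE), with a 95% interval of -0.46 to 0.72, and -0.15 without resolution replicate 2. Rplp1 read 16.89, 17.26, 16.91 and 16.91 in resolution, 16.84, 16.96 and 16.89 in acute, and 16.81, 16.87, 16.75 and 16.86 in control (0.17 ± 0.11 SE; limma adjusted p = 0.337). Rpsa, also named as a laminin receptor, read 17.10, 17.05, 17.05 and 16.90 in resolution and 16.99, 16.80, 16.85 and 17.02 in control (0.11 ± 0.10 SE). Rps6 read 16.95, 17.00, 17.07 and 16.93 in resolution and 16.97, 16.92, 16.93 and 16.98 in control, with a difference of 0.04 ± 0.10 (SE). X-linked Rps4x differed by 0.009 ± 0.10 and Rpl11 by 0.14 ± 0.14 (SE), or -0.0034 without resolution replicate 2. The 95% interval lay within a 1.5-fold change for 52 members and within a 2-fold change for all 55.

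**Figure D4:**
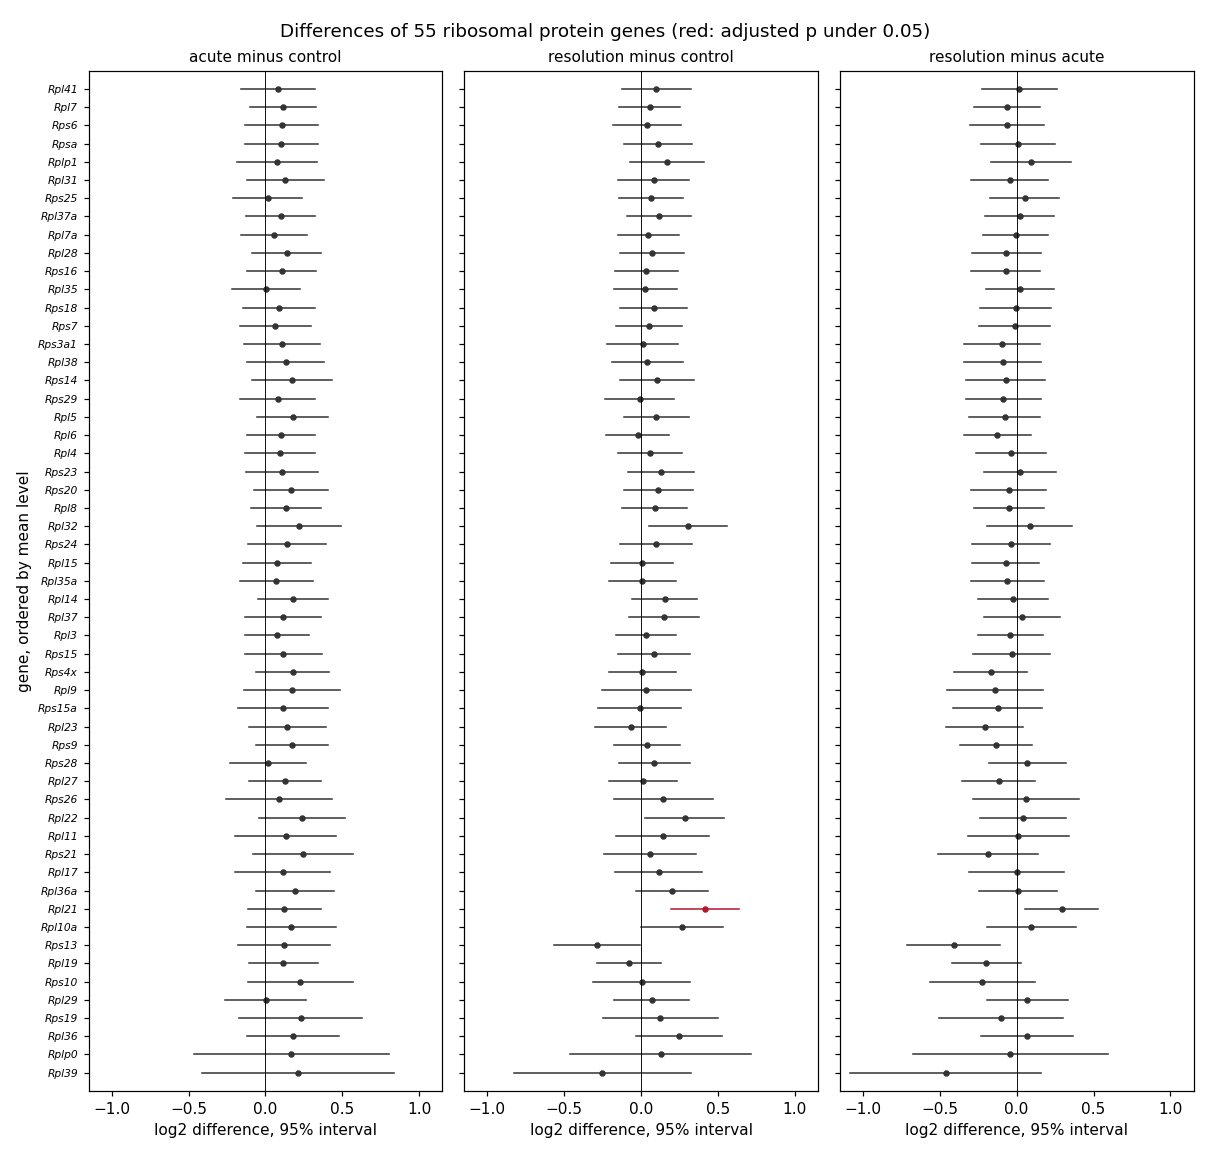
Log2 difference and 95% interval of each of the 55 ribosomal protein genes in the 3 comparisons, from the brightest gene at the top to the dimmest. Only Rpl21 in resolution minus control (0.42) has an adjusted p under 0.05.

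In resolution against acute MAS, 36 members had a negative and 19 a positive difference, limma called 0 of them and 14.5% of all genes (7.77% higher, 6.69% lower), and the direction depended on scaling. Of all genes tested 49.8% had a positive difference. Of the 373 other bright genes 41.8% did, with a median of -0.026. The members' median difference was -0.04. It was 0.003, 0.012 and 0.008 after scaling to a common median, quantile normalization and scaling to other bright genes. Positive members then numbered 28, 30 and 30. Without acute replicate 1 only 8 members were positive and without resolution replicate 2 only 9. Rpl21 had the largest positive difference (0.29 ± 0.11 SE; limma adjusted p = 0.0966), and its resolution arrays lay above all acute arrays. Rpl10a (0.10), Rplp1 (0.09) and Rpl32 (0.08) followed. The largest negative differences were those of Rpl39 (-0.46 ± 0.29 SE; limma adjusted p = 0.32) and Rps13 (-0.41 ± 0.14 SE; limma adjusted p = 0.0697). Rps10 (-0.22) and Rpl23 (-0.21) came next. Without resolution replicate 2 limma called both Rpl39 (-0.78, adjusted p = 0.0163) and Rps13 (-0.50, adjusted p = 0.0242). The resolution arrays lay below all acute arrays in 5 members (Rpl3, Rpl6, Rpl19, Rps4x and Rps13) and above them in 1, against 12.9% and 13.5% of all genes and 26.3% in either direction. At an unadjusted p under 0.05 limma found 2 members, Rpl21 and Rps13, against 28.8% of all genes.

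Of the 9 paralogs with a "-like" symbol, which all passed the filter, limma called 1 in resolution against control and 1 in resolution against acute, beside 18.6% and 14.5% of all genes, and 0 in acute against control. Rpl7l1, a relative of Rpl7 whose yeast counterpart works in the assembly of the large subunit, read 11.18, 11.34, 10.91 and 10.93 in resolution. It read 11.47, 11.54 and 11.65 in acute and 11.39, 11.49, 11.43 and 11.53 in control. Every resolution array lay below every other array. Rpl7l1 was 1.38-fold lower in resolution than in acute (-0.46 ± 0.13 SE; limma adjusted p = 0.0312) and 1.30-fold lower than in control (-0.37 ± 0.12 SE; limma adjusted p = 0.0463). The first call held in 14 of 22 alternatives (other filters, scalings and fits, and arrays left out) and ended without acute replicate 1, 2 or 3 or resolution replicate 3 or 4 (adjusted p up to 0.107). The second held in 6 of 23 and ended on leaving out any single array except resolution replicate 2 (adjusted p up to 0.175 over all alternatives). Rpl7 itself read 16.98, 17.03, 17.01 and 17.00 in resolution, 17.01, 17.11 and 17.08 in acute, and 16.97, 17.00, 16.92 and 16.91 in control. In none of the 3 comparisons did Rpl22l1, Rpl32l, Rpl36al, Rpl39l, Rps27l or Rps4l pass, and Rpl3l and Rpl10l, known from muscle and testis, lay below background. Of the symbols given apart, Rps19bp1 read 10.42, 10.65, 10.06 and 9.81 in resolution and 10.54, 10.71 and 10.90 in acute (-0.48 ± 0.19 SE; limma adjusted p = 0.118). Rps23rg1, Rpl37rt and Rps27rt passed in no comparison.

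Genes around the ribosomal proteins were read from 4 lists. Among 16 other genes with TOP tracts, mainly elongation factors and partners of the ribosome, limma called 0 in each comparison, beside 0.239% of all genes in acute against control, 18.6% in resolution against control and 14.5% in resolution against acute. In resolution against control, the elongation factor genes Eef1d (0.36, adjusted p = 0.0521) and Eef1g (-0.30, adjusted p = 0.226) passed in 6 and 2 of 23 alternatives, Eef1d also without resolution replicate 4 and Eef1g without resolution replicate 2. The median difference of the 16 genes was 0.08 in acute against control, 0.04 in resolution against control and -0.06 in resolution against acute. Eef1a1, which brings aminoacyl-tRNA to the ribosome, read 17.25, 17.07, 17.21 and 17.24 in resolution, 17.26, 17.30 and 17.27 in acute, and 17.32, 17.30, 17.24 and 17.27 in control. In acute against control, limma also called 0 of 24 initiation factors, 0 of 48 ribosome biogenesis factors and 0 of 18 regulators.

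Of the 24 genes listed as initiation factors, 2 rose and 6 fell in resolution against control, beside 9.6% and 9.0% of all genes. The 2 that rose were Eif4ebp1, which encodes a repressor of initiation, and its relative Eif4ebp2. The 6 that fell were Eif3b, Eif4a1, Eif4e, Eif4g2, Eif5b and Eif6. Eif4ebp1, which binds the cap-binding factor Eif4e and blocks initiation until mTOR phosphorylates it, read 10.26, 10.95, 10.20 and 9.90 in resolution. It read 9.15, 8.86 and 8.999 in acute and 9.04, 8.74, 8.59 and 9.13 in control, so every resolution array was higher. It rose 2.73-fold against control (1.45 ± 0.20 SE; limma adjusted p = 0.000333) and 2.498-fold against acute (1.32 ± 0.22 SE; limma adjusted p = 0.00164). Its relative Eif4ebp2 read 10.60, 10.36, 10.66 and 10.47 in resolution and 10.12, 9.75, 9.23 and 9.15 in control. It rose 1.95-fold (limma adjusted p = 0.00987, and 0.112 without control replicates 3 and 4 together).

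Eif4a1, the helicase of the cap complex, read 11.95, 11.09, 11.60 and 11.75 in resolution, 12.49, 12.21 and 12.04 in acute, and 12.33, 12.39, 12.61 and 12.80 in control. It fell 1.92-fold against control (-0.94 ± 0.18 SE; limma adjusted p = 0.00352). Eif6, which keeps the large subunit from joining too early, read 12.72, 13.09, 12.80 and 12.50 in resolution, 13.50, 13.27 and 13.42 in acute, and 13.29, 13.46, 13.28 and 13.49 in control. Resolution arrays were lower than all others, 1.52-fold against control (limma adjusted p = 0.00733) and 1.54-fold against acute (0.0125, and 0.0563 without acute replicate 1). The GTPase Eif5b, which joins the subunits, fell 1.44-fold against control (limma adjusted p = 0.0183, and 0.0532 without control replicate 2). Eif3b, Eif4e and Eif4g2 fell between 1.31- and 1.37-fold, with calls that ended when an array was left out. The arrays were resolution 2 or 4 or any control for Eif3b (adjusted p up to 0.133 over all alternatives), resolution 1 or 3 or control 3 or 4 for Eif4e (up to 0.225), and resolution 3 or control 2 or 3 for Eif4g2 (up to 0.0793). Against acute 1 of the listed genes rose, Eif4ebp1, and 3 fell, Eif4a1, Eif5b and Eif6, beside 7.77% and 6.69% of all genes. The Eif4a1 call against acute (adjusted p = 0.0459) held in 7 of 22 alternatives and ended without any one array other than resolution 1 or control 4 (up to 0.178), and that of Eif5b ended without acute replicate 1 or 2.

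**Figure D5:**
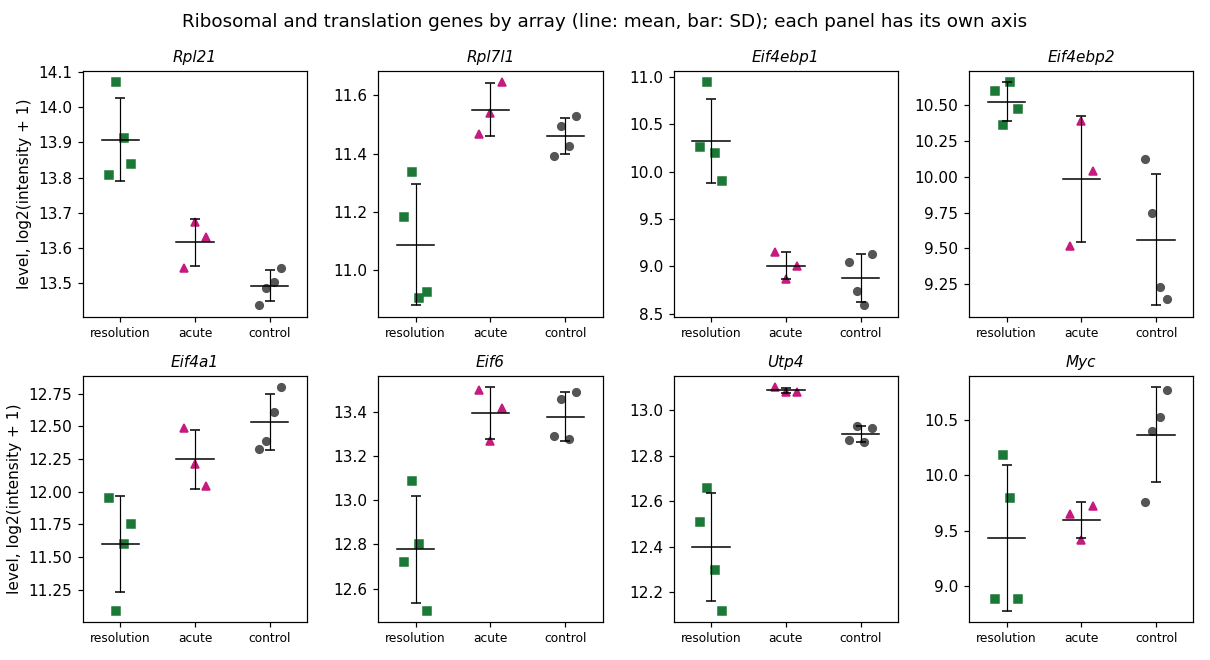
Levels of Rpl21, Rpl7l1 and 6 other genes on every array, as log2(intensity + 1), with group mean (line) and SD (bar); each panel has its own axis. Resolution arrays of Rpl21 and Eif4ebp1 lie above all others, and those of Rpl7l1, Eif4a1, Eif6 and Utp4 below.

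Of the 48 biogenesis factors, 8 had a positive difference between resolution and control and the median was -0.18. Among all genes tested 50.5% were positive and the median was 0.003. Limma called 3 of the 48 lower and 0 higher, beside 9.0% and 9.6% of all genes. Utp4, of the complex that processes small subunit RNA, read 12.51, 12.66, 12.30 and 12.12 in resolution, 13.10, 13.08 and 13.08 in acute, and 12.87, 12.93, 12.86 and 12.92 in control. It was lower than in both other groups on every resolution array. It fell 1.41-fold against control (limma adjusted p = 0.0125, and 0.0651 without control replicates 3 and 4 together) and 1.62-fold against acute (limma adjusted p = 0.00384). Nop14, of the same complex, fell 1.39-fold against control and against acute (limma adjusted p = 0.0147 and 0.028). The call against control held in 21 of 23 alternatives and that against acute in 14 of 22, ending without resolution 1, 2 or 3 or acute 1 or 3 (adjusted p up to 0.113). Gnl2 (against control) and Nip7 (against acute), both of large subunit assembly, fell 1.33-fold with calls that held in 6 of 23 and 7 of 22 alternatives. That of Gnl2 ended on leaving out any one array other than resolution 2 or control 1, and that of Nip7 any one other than resolution 4 or control 3 or 4 (adjusted p up to 0.212 and 0.141).

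Among 18 regulators, 2 rose and 3 fell in resolution against control, beside 9.6% and 9.0% of all genes. Tsc1, which restrains mTOR, read 9.90, 9.0, 9.20 and 9.72 in resolution and 10.75, 10.13, 10.83 and 10.58 in control. It fell 2.17-fold (-1.12 ± 0.20 SE; limma adjusted p = 0.00227). Sesn2, a leucine sensor that also restrains mTOR, was at least 1.14-fold higher in resolution (limma adjusted p = 0.00345), with 2 resolution arrays above background and a control mean below it. The other rise was that of Eif4ebp1, which both lists hold. Myc, a transcription factor that drives ribosome synthesis, read 8.88, 10.18, 9.80 and 8.89 in resolution, 9.65, 9.42 and 9.73 in acute, and 9.76, 10.40, 10.53 and 10.77 in control. Its arrays overlapped, and its 1.91-fold fall against control (limma adjusted p = 0.0409) held in 12 of 23 alternatives. It ended without resolution 1 or 4, any acute array, or control 2, 3 or 4 (adjusted p up to 0.27). Larp4, which binds poly(A) tails, fell 1.42-fold (limma adjusted p = 0.0285, held in 15 of 23 alternatives and lost without resolution 2 or 4 or control 1, 2 or 3). Against acute, Eif4ebp1 alone of the 18 passed, as a rise, beside 7.77% of all genes higher and 6.69% lower.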

How the data were processed

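RNA of lavaged mouse alveolar macrophages was measured on 11 Affymetrix arrays after biotin labelling with a 3′ IVT Pico kit, per the labels. The deposited intensities, on a linear scale, were made by the authors with Affymetrix Expression Console, per the submitters' processing notes; its version, its summary method and the array's genome build were not stated. Log2(intensity + 1) was taken with no added scaling. Of 28846 transcript clusters 31 were controls, 19572 had 1 symbol, 0 several and 9243 none, and the brightest cluster stood for each of 55 symbols with several (0 of them members). A gene was tested, 12143 in all, where 3 or more of the 11 arrays were above their 40th percentile.

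The groups were compared with limma 3.58.1 (R 4.3.3) in a single model of the 3 group means, with no block for replicate number. P-values are two-sided and were adjusted by Benjamini-Hochberg across the tested genes, and "called" means an adjusted p under 0.05. Errors of differences are moderated standard errors with 8 residual and 4.48 prior degrees of freedom. Background was the 90th percentile of 23 antigenomic probe sets per array. A fold is "at least" where the lower group's mean did not exceed its background by more than 1 SD, and then starts from the background. Alternatives were other filters, a pseudocount of 16, scalings, variance trends, a replicate block, other member and cluster choices and arrays left out. The script was tested on simulated data with 50 changed genes per fold. Of 1.1-fold changes limma recovered 0% in each comparison. Of 1.5-fold changes it recovered 24% in acute against control, 34% in resolution against control and 36% in resolution against acute. Of 2-fold changes it recovered 76%, 72% and 64%, in the same order. The number of arrays limits the precision.

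Named were the 4 largest differences in each direction (or those called), the 3 brightest and 3 dimmest members, P stalk and other well-studied members, paralogs, members with an array apart and those of opposite sign. The members, the lists and the tests were chosen with earlier results of these data known. Sequences are from RefSeq (GRCm38.p6).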

Additional observations from a re-analysis of the deposited data

Results flagged for a closer look

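Within the groups of 4 arrays, 110 sets of member values were tested. The sets share arrays and most members moved together, so their count cannot show an excess over chance. An array lay far from the other 3 in 13 sets by Dixon's test at the 95% level, which chance alone gives in about 1 of 20. Resolution replicate 2 was the high value in 8 of them: Rpl36a at 14.07, Rplp0 at 10.90, Rplp1 at 17.26, Rps10 at 13.11, Rps15 at 15.99, Rps15a at 15.78, Rps19 at 12.92 and Rps24 at 16.33. Resolution replicate 4 was the high value of Rpl29 at 12.76, and resolution replicate 1 the low value of Rps7 at 16.50. Control replicate 3 was the low value of Rpl6 at 16.18, Rps16 at 16.54 and Rps3a1 at 16.31, and also of the retrotransposed copy Rpl37rt at 14.31. None of these genes was called in a comparison.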

How the results depend on the processing

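In acute against control, limma called 0 members under every alternative run. Between 51 and 55 of the 55 stayed positive (52 to 55 on leaving out 1 array), and medians ran from 0.079 to 0.162. In resolution against control it called 1 or 2 members on leaving out 1 array, 2 after quantile normalization, after scaling to other bright genes or with the paralogs counted, 3 with an intensity trend or without resolution replicate 2 and control replicate 3, and 0 without control replicates 3 and 4. Positive members numbered 38 to 50 on leaving out 1 array and 30 without resolution replicate 2 and control replicate 3. In resolution against acute it called 0 to 2 members on leaving out 1 array, 1 with a stricter filter (60th percentile), after scaling to other bright genes or with the paralogs counted, and 2 with the trend or without those same 2 arrays. Positive members numbered 8 to 25 on leaving out 1 array, 9 without those 2 arrays, and 30 after quantile normalization or scaling to other bright genes. Without resolution replicate 2, 10 members that were not called turned from a positive to a negative difference from control, Rplp0 (-0.15) being the lowest. On leaving out 1 array the resolution-control difference ran from -0.064 to 0.159 in Rps21, -0.126 to 0.055 in Rps10 and -0.035 to 0.197 in Rps19. The resolution-acute difference ran from -0.045 to 0.106 in Rpl22, -0.263 to 0.019 in Rps19 and -0.029 to 0.204 in Rpl10a. Without resolution replicate 2 and control replicate 3, Rps21, Rps10 and Rps19 differed from control by -0.088, -0.201 and -0.109 and Rpl22 from acute by -0.045. Without control replicates 3 and 4, Rps10 differed by -0.04. The causes were not tested.

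Counts over all genes moved too. In acute against control limma called 29, but 6 without acute replicate 2, 10 without acute replicate 3, 13 and 18 without control replicates 1 and 2, 16 in a fit of the compared groups alone and 51 with the trend. It called 1494 in place of 2259 in resolution against control without control replicates 3 and 4, and 1069 in place of 1755 in resolution against acute without acute replicate 1. Scaling to other bright genes gave 1190 higher and 661 lower in resolution against acute, in place of 943 and 812. Same-numbered arrays of different groups did not deviate together (r of -0.124 to 0.087 over 10 pairs, -0.14 to 0.2 over 30 others). With the number as a replicate block limma called 0, 1 and 0 members, with medians of 0.118, 0.07 and -0.042, and 25, 2120 and 1455 genes, in acute against control, resolution against control and resolution against acute. The block ended the calls of Rpl7l1 (adjusted p = 0.0809 against control, 0.0792 against acute), Eif3b (0.0599), Eif4g2 (0.0512), Gnl2 (0.059) and Nip7 (0.0736), and added Noc3l (0.0408) and, against acute, Sesn2 (0.022).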
